A study of Mus musculus with 4 samples.

Results

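The genes described are 9 integrin subunits and Cd44, a set of adhesion receptors chosen by name, with earlier results of these data known. They are the alpha subunits Itgae, Itgal, Itga4, Itga6, Itga1 and Itgav, the beta subunits Itgb7, Itgb2 and Itgb1, and the hyaluronan receptor Cd44, together 10 of the 23284 gene symbols in the count files. RNA was sequenced from Treg cells, the regulatory T cells that express FOXP3 and hold immune responses in check, of C57BL/6 mice aged 12 to 13 months. They came from eWAT, the epididymal white fat inside the abdomen, or from spleen as the control tissue. The mice were PPARg-2KR, named 2KR here, or wild type (WT). In 2KR mice, lysines of the nuclear receptor PPARG are replaced by arginine. PPARG is abundant in Treg cells of fat. There were 4 libraries: 2KR eWAT, WT eWAT, 2KR spleen and WT spleen, with 1 library in each. The sources used here do not give the sort gate or the number of animals behind a library.

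Integrins are cell surface receptors built from an alpha and a beta subunit, and the pair decides what the cell can hold on to. In T cells the alpha-L subunit with beta-2 forms LFA-1, which binds ICAM proteins on other cells, and alpha-4 joins beta-1 or beta-7 to bind VCAM-1 or the gut vessel receptor MAdCAM-1. Alpha-E, also called CD103, pairs with beta-7 to bind E-cadherin on epithelium and marks many tissue Treg cells. Alpha-1 and alpha-6 pair with beta-1 to bind collagen and laminin, and alpha-v integrins bind matrix proteins and can release active TGF-beta. CD44 binds hyaluronan and is a classical marker of antigen-experienced T cells.

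Read counts summed to 8315569 and 11186660 in 2KR and WT eWAT, and to 15993889 and 13250590 in 2KR and WT spleen. Levels are given as CPM, counts scaled to library size, with trimmed mean of M-values (TMM) factors. Foxp3, the Treg lineage factor, stood at 803 and 1159.5 CPM in 2KR and WT eWAT and at 1297 and 1407 CPM in 2KR and WT spleen, so each library carried the defining transcript. Pparg stood at 64.1 and 129.5 CPM in 2KR and WT eWAT, and at 2.88 and 5.73 CPM in 2KR and WT spleen. Because the knock-in replaces amino acids of the protein, the level of Pparg RNA cannot check the genotype label. The summed level of 9 Treg and T cell markers lay between 6074 and 7996 CPM in eWAT and between 8845 and 9894 CPM in spleen. Of these 9 markers 5 were lower in eWAT, Cd3d (−1.43), Lck (−1.24) and Cd3e (−1.03) among them, 1 was higher and 3 did not pass, with a median log2 fold change of −0.67. Many markers of other cells were higher in eWAT, where 33.7% of all genes tested were higher and 23.2% lower. All 12 macrophage and monocyte markers passed the test described below as higher, with sums of 1405 to 1802 CPM in eWAT and 95.1 to 139 CPM in spleen. All 10 dendritic cell markers did so, with sums of 6970.3 to 12666 and 589 to 866 CPM. Most of the eWAT sums was Cd74, at 8289 and 4501 CPM in 2KR and WT eWAT, and H2-Ab1, at 3527 and 1988 CPM. All 10 fibroblast and mesothelial markers also passed as higher, with sums of 264 to 577 and 4.39 to 8.71 CPM. In the other lists 8 of 9 endothelial, 4 of 8 B cell, 2 of 8 CD8 T and NK cell, 3 of 6 neutrophil and 5 of 5 mast and innate lymphoid type 2 markers tested were higher, and 1 each of the first 3 lists was lower. The endothelial markers summed to 201 to 346 CPM in eWAT and 181 to 195 CPM in spleen. Most of the spleen sum was Pecam1, the endothelial marker that was lower, at 190 and 172 CPM in 2KR and WT spleen. Pecam1 stood at 112 and 63.4 CPM in 2KR and WT eWAT. The eWAT and spleen sums were 96.6 to 172 and 84.2 to 98.2 CPM for B cells. For CD8 T and NK cells they were 58.9 to 67.3 and 69.6 to 75.5 CPM. They were 13.9 to 15.5 and 2.36 to 5.57 CPM for neutrophils, and 66.9 to 107 and 7.40 to 10.003 CPM for mast and innate lymphoid cells. Only 5 of the 9 mast and innate lymphoid markers entered the test. Tpsb2 and Mcpt4, which did not, had 175 and 102 reads in 2KR eWAT, against 4 and 0 in WT eWAT. Calca, at 16.8 and 44.9 CPM in 2KR and WT eWAT, made up most of the WT eWAT sum of that list. Lum, Cav1, Tpsb2 and Mcpt4 had 0 reads in both spleen libraries, and no marker had 0 reads in both eWAT libraries. In 2KR and WT spleen, Clec10a had 0 and 1 reads and Upk3b 1 and 3. Markers so low in spleen could hardly be called lower, so these counts of markers do not test direction. Integrins are also expressed by these other cells, and their part in the results below was not tested.

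Levels of different genes were compared per length, as the authors' FPKM (fragments scaled to transcript length and to mapped fragments). Itgb7 was the most abundant of the 10 genes in every library, at 479.9 and 821 FPKM in 2KR and WT eWAT and 608 and 588 FPKM in 2KR and WT spleen. Itgb2 followed, at 253 and 258 FPKM in 2KR and WT eWAT and 331 and 313 FPKM in 2KR and WT spleen. Among the 18 alpha subunit genes, Itgal made up the largest part of the summed FPKM, 37.3% and 47.3% in 2KR and WT eWAT and 54.5% and 51.0% in 2KR and WT spleen. The rest of the alpha pool differed between tissues. Itgae held 4.30% and 2.38% of it in 2KR and WT eWAT, against 15.2% and 20.5% in 2KR and WT spleen. Itgav held 11.8% and 12.2% in 2KR and WT eWAT, against 2.85% and 2.66% in 2KR and WT spleen. The 6 alpha members together made up 79.4% and 84.8% of the alpha pool in 2KR and WT eWAT and 97.2% and 96.7% in 2KR and WT spleen. The 3 beta members made up at least 97.4% of the beta pool in each library.

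**Figure D1:**
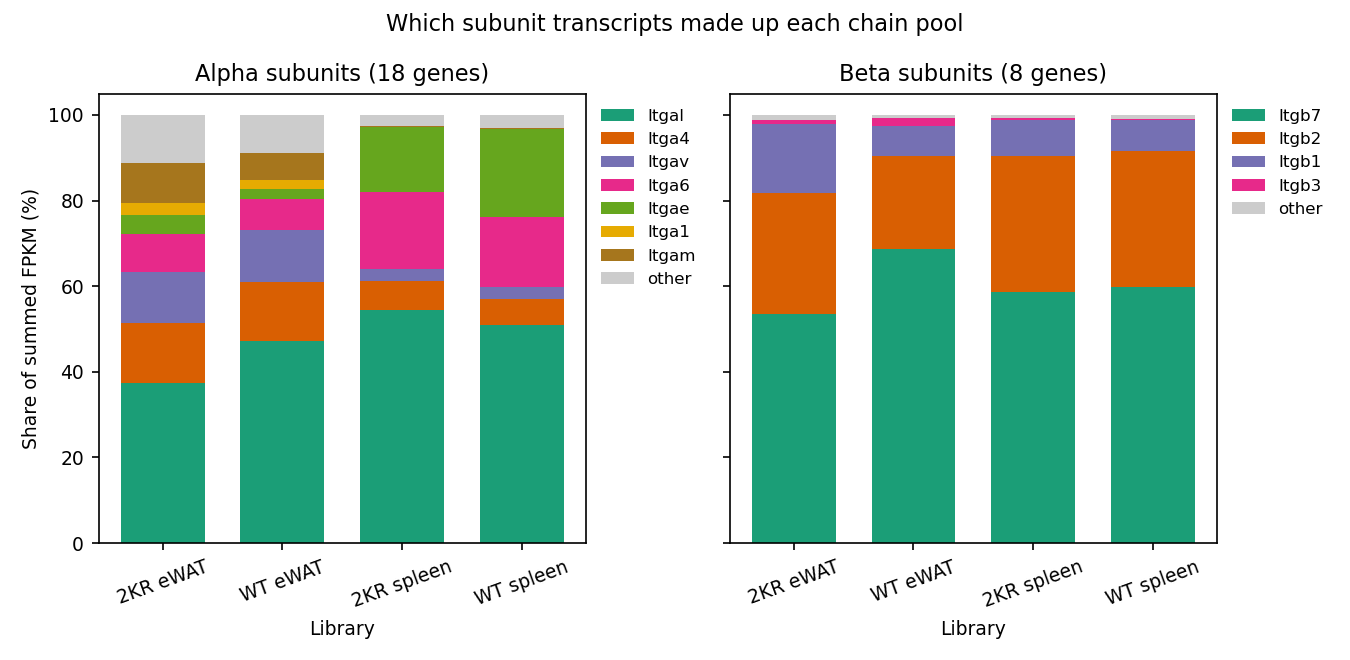
Share of the summed FPKM (y axis, percent) taken by each integrin alpha subunit gene (left, 18 genes) and beta subunit gene (right, 8 genes) in each of the 4 libraries (x axis). Itgae and Itga6 take smaller shares in the eWAT bars than in the spleen bars, while Itgav and Itga4 take larger ones, and Itgb7 is the largest beta share in every bar.

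The comparison of tissues set the 2 eWAT libraries against the 2 spleen libraries. Itga1, Itgav, Cd44 and Itga4 were higher in eWAT, Itgae, Itga6 and Itgal were lower, and Itgb1, Itgb2 and Itgb7 did not pass by edgeR's quasi-likelihood test at an adjusted p (Benjamini and Hochberg, over 16488 genes) below 0.05. That is 4 of 10 genes higher, where 33.7% of all genes tested were higher, and 3 of 10 lower, where 23.2% were lower. In all, 7 of 10 passed either way, where 56.9% did, so the counts lay close to the background. The members' median log2 fold change was 0.13, against 0.11 over all genes tested. The eWAT and spleen libraries did not overlap for 8 of the 10 genes. Of these, 4 were above spleen in both eWAT libraries, as were 44.3% of all genes, and 4 were below, as were 37.5%. Within 2KR, 2 of the 10 genes (Itga1 and Itgav) had a log2 ratio of eWAT over spleen of 1 or higher, as did 23.1% of 12307 genes, and 3 (Itgae, Itga6 and Itgal) had −1 or lower, as did 14.3%. Within WT, 3 (Itga1, Cd44 and Itgav) had 1 or higher, as did 20.7%, and 2 (Itgae and Itga6) had −1 or lower, as did 11.9%. In bulk samples, fewer cells that carry a transcript and less transcript per cell cannot be told apart. Each tissue held 1 library of each genotype, so any genotype difference is part of the spread, and the p-values measure the spread between these libraries alone, which may be technical.

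**Figure D2:**
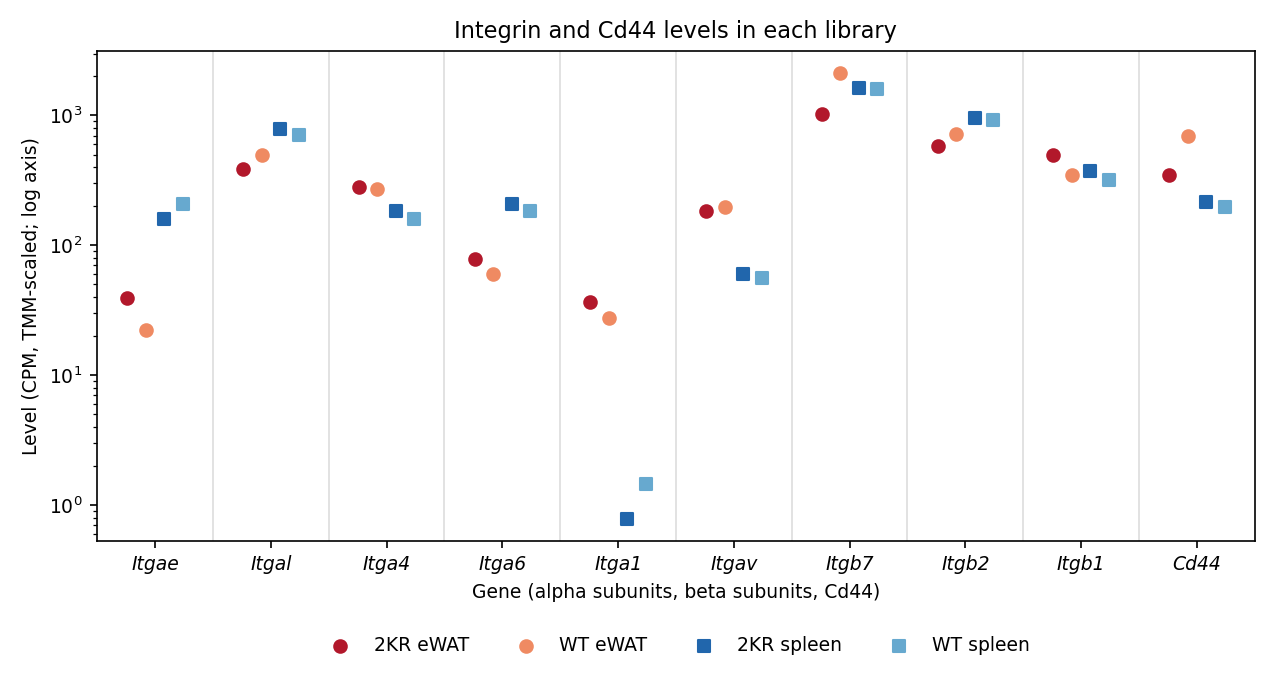
Level of each gene in each library (y axis, TMM-scaled CPM on a log axis), with eWAT libraries as circles and spleen libraries as squares, and 1 point per library. The largest gap between tissues is at Itga1, at 36.6 and 27.4 CPM in 2KR and WT eWAT and 0.786 and 1.45 CPM in 2KR and WT spleen. At Itgb7 and Cd44 the WT eWAT point stands above the 2KR eWAT point.

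Itgae (chromosome 11, 72904097 to 72960951 in mm9, the build of the files), which encodes the alpha-E chain CD103, had 376 and 240 reads in 2KR and WT eWAT and 2451 and 2580 reads in 2KR and WT spleen. These are 39.1 and 22.2 CPM in 2KR and WT eWAT, and 160.5 and 208 CPM in 2KR and WT spleen. Both eWAT libraries lay far below both spleen libraries, and WT eWAT was the lowest of the 4. The log2 fold change of eWAT over spleen was −2.59 (SE 0.26, edgeR adjusted p = 4.81e-06), a 6.02-fold lower level. Within genotypes the log2 ratio of eWAT over spleen was −2.03 in 2KR (95% exact interval −2.20 to −1.88) and −3.22 in WT (−3.43 to −3.04). These intervals, and all later intervals on ratios of 2 libraries, cover counting error only. They hold no spread between animals, and reads from PCR are not independent molecules.

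The beta-7 partner of CD103 did not pass the test. Itgb7 (chromosome 15, 102046426 to 102062366 in mm9) stood at 1018 and 2123 CPM in 2KR and WT eWAT and at 1619 and 1599 CPM in 2KR and WT spleen. The WT eWAT library was the highest and the 2KR eWAT library the lowest, with both spleen libraries between them. The tissue test gave a log2 fold change of −0.03 (SE 0.33, edgeR adjusted p = 0.935). That value depended on which eWAT library was used. Without 2KR eWAT it was 0.33 (adjusted p = 0.0442) and without WT eWAT −0.76 (adjusted p = 2.18e-05), with the lone eWAT library assumed to vary like the spleen libraries. The tissue ratio was −0.67 (−0.70 to −0.64) in 2KR and 0.41 (0.38 to 0.44) in WT. Itgb7 was 1 of 10 genes with such a turn of sign and both intervals away from 0, which 4.04% of 12307 genes showed. These intervals narrow as reads rise, so that share is not taken at equal depth. Per length, Itgae reached 0.0216 and 0.00581 of the Itgb7 level in 2KR and WT eWAT, against 0.0674 and 0.0879 in 2KR and WT spleen.

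Itga4 (chromosome 2, 79095583 to 79173271 in mm9), the alpha-4 chain shared by the VCAM-1 and MAdCAM-1 receptors, stood at 282 and 273 CPM in 2KR and WT eWAT and 185 and 159 CPM in 2KR and WT spleen. Both eWAT libraries were above both spleen libraries, by less than for Itga1, Itgav and Cd44. The log2 fold change was 0.69 (SE 0.20, edgeR adjusted p = 0.0108). The call was lost without WT spleen (0.54, adjusted p = 0.333) and without 2KR spleen (0.74, adjusted p = 0.193). Relative to Itgb7 per length, Itga4 stood at 0.0716 and 0.0335 in 2KR and WT eWAT, against 0.0298 and 0.0261 in 2KR and WT spleen.

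Of the LFA-1 chains, the alpha chain passed the test as lower in eWAT and the beta chain did not. Itgal (chromosome 7, 134439774 to 134478651 in mm9) stood at 390.5 and 495 CPM in 2KR and WT eWAT and at 785 and 702 CPM in 2KR and WT spleen. Its log2 fold change was −0.75 (SE 0.24, edgeR adjusted p = 0.0171). The call was lost without WT spleen (−0.87, adjusted p = 0.159) or 2KR spleen (−0.72, adjusted p = 0.268), at folds of about the same size. Itgb2 (chromosome 10, 76993093 to 77028419 in mm9), the beta-2 chain of LFA-1 and of myeloid integrins, stood at 584 and 724 CPM in 2KR and WT eWAT and at 951 and 920.5 CPM in 2KR and WT spleen. Its libraries did not overlap either, but the test gave −0.52 (SE 0.25, edgeR adjusted p = 0.0867). Itgb2 passed with DESeq2 (adjusted p = 0.00666), without WT eWAT (−0.78, adjusted p = 2.32e-05) and without 2KR eWAT (−0.44, adjusted p = 0.0139). Of all pairs among the 10 genes, Itgal and Itgb2 had the most similar pattern, with a distance of 0.25 between their centred log2 levels over 4 libraries. The Itgal level per length was 0.356 and 0.366 of the Itgb2 level in 2KR and WT eWAT and 0.443 and 0.410 in 2KR and WT spleen.

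The matrix-binding alpha chains moved in opposite directions. Itga1 (chromosome 13, 115748289 to 115892172 in mm9), the collagen receptor chain CD49a, had 352 and 297 reads in 2KR and WT eWAT but 12 and 18 reads in 2KR and WT spleen. Both eWAT libraries lay far above both spleen libraries, where few reads support the level. The log2 fold change was 4.85 (SE 0.38, edgeR adjusted p = 4.49e-07), a 28.9-fold higher level. It was 2.57 from FPKM with a pseudocount of 1, a scale that understates the change of low genes. Itgav (chromosome 2, 83564554 to 83647073 in mm9), the alpha-v chain, stood at 185 and 199 CPM in 2KR and WT eWAT and 60.0 and 56.3 CPM in 2KR and WT spleen. Within each tissue its 2 libraries lay close together, and the tissues were well apart. Its log2 fold change was 1.72 (SE 0.19, edgeR adjusted p = 1.20e-05), a 3.30-fold higher level.

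Itga6 (chromosome 2, 71625140 to 71694815 in mm9), the laminin receptor chain, stood at 77.8 and 60.4 CPM in 2KR and WT eWAT and at 209.9 and 185 CPM in 2KR and WT spleen. It was lower in both eWAT libraries, with a log2 fold change of −1.52 (SE 0.20, edgeR adjusted p = 6.76e-05). The shared partner of these chains, Itgb1 (chromosome 8, 131209554 to 131257479 in mm9), stood at 498 and 351 CPM in 2KR and WT eWAT and at 372 and 316 CPM in 2KR and WT spleen. The 2KR eWAT library was the highest, and WT eWAT lay between the spleen libraries. Its log2 fold change was 0.30 (SE 0.24, edgeR adjusted p = 0.289), which passed without WT eWAT (0.43, adjusted p = 0.0209) and was −0.04 without 2KR eWAT.

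Cd44 (chromosome 2, 102651300 to 102741822 in mm9) had 3352 and 7593 reads in 2KR and WT eWAT and 3319 and 2436 reads in 2KR and WT spleen. The levels were 349 and 701 CPM in 2KR and WT eWAT and 217 and 197 CPM in 2KR and WT spleen. Both eWAT libraries were above both spleen libraries, and WT eWAT stood highest. The log2 fold change was 1.34 (SE 0.29, edgeR adjusted p = 0.00200). Without WT eWAT it was 0.65 (adjusted p = 0.000531), more than 1.5 times smaller as a fold, and without 2KR eWAT it was 1.69.

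**Figure D3:**
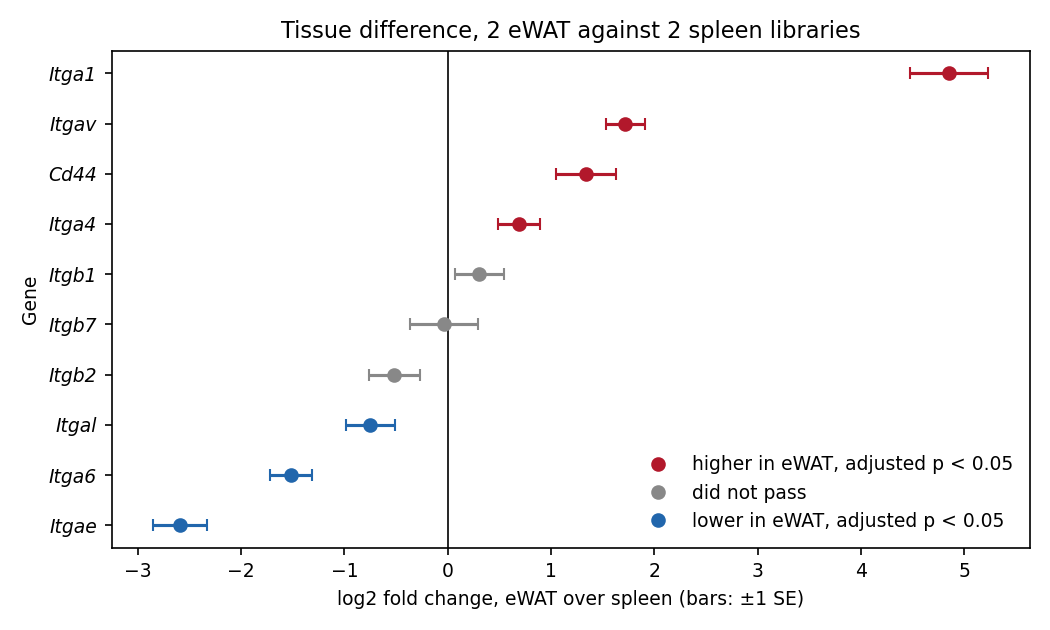
Log2 fold change of eWAT over spleen for each gene (x axis) from edgeR on 2 libraries per tissue, with bars of 1 SE. Points in red passed as higher in eWAT, points in blue passed as lower, and grey points did not pass. Itga1 at 4.85 and Itgae at −2.59 mark the ends.

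Promoter sequences were taken from the RefSeq-based promoter table (GRCm38.p6, not the build of the files). Of the 10 genes 6 matched, and Itgae, Itgal, Itga6 and Itgb2 did not. Shown are 4 of the 6 that matched, and each runs 5′ to 3′ from 250 bases before to 50 after the annotated start. Capitals mark any match, on either strand, to 5 motifs, whose matches do not overlap here: TGTGGT (RUNX factors), TGANTCA (AP-1), GGGCGG (SP and KLF factors), CCGGAAG (ETS factors) and 2 copies of AGGTCA with 1 base between them (PPAR with RXR). Itga1 (chr13:115101915-115102214, minus strand) and Itgav (chr2:83724147-83724446, plus strand) are shown as the integrin chains with the largest rises in eWAT among the 10 genes, and Cd44 (chr2:102901616-102901915, minus strand) and Itgb7 (chr15:102231886-102232185, minus strand) as the genes with the lowest 2KR over WT ratios in eWAT among them.
Itga1: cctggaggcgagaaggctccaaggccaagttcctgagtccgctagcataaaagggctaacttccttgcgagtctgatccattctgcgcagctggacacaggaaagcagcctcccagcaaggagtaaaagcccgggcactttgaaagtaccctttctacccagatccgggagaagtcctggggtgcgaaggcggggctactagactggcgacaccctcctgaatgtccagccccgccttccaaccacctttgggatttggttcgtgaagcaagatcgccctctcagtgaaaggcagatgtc
Itgav: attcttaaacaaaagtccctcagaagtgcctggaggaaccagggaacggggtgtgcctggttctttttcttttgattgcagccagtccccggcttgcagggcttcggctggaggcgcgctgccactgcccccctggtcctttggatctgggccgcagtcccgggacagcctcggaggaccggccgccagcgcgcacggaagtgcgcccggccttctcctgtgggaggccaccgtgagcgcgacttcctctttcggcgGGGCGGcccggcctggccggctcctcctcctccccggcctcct
Cd44: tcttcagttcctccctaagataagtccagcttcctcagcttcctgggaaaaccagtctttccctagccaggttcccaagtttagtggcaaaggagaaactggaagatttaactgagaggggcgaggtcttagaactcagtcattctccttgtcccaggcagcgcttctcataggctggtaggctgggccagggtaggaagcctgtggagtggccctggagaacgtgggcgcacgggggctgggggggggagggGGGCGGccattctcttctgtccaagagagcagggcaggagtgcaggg
Itgb7: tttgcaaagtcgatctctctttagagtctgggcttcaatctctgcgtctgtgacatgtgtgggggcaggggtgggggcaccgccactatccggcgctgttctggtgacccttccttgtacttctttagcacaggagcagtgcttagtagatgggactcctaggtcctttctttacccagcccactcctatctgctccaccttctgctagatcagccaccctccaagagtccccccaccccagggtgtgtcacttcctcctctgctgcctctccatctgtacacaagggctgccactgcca

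Itgav and Cd44 each held 1 match, GGGCGG, beginning 7 and 3 bases after the start. Itga1 and Itgb7 held none of the 5 motifs in these windows. Of the other promoters matched, Itgb1 held GGGCGG 151 bases before the start and Itga4 held GGGCGG 114 bases before it and TGTGGT, on the minus strand, 60 bases before it. GGGCGG occurs in 35.7% of the 32851 promoters in the table, TGTGGT in 16.8%, CCGGAAG in 8.86%, TGANTCA in 7.81% and the spaced AGGTCA repeat in 0.0396%. A match is a description of letters and not evidence of binding.

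The comparison of genotypes in fat asked how 2KR eWAT differed from WT eWAT, with 1 library in each and therefore no test. Itgb7 and Cd44 were lower in 2KR eWAT at about the same size. The 2KR over WT ratio on the log2 scale was −1.06 for Itgb7 (−1.10 to −1.03, a 95% exact interval) and −1.01 for Cd44 (−1.07 to −0.95). No gene of the 10 had a ratio of 1 or higher. So 2 of 10 lay at −1 or lower, where 2.33% of 12307 genes at 5 CPM or more in a library did, and 0 of 10 lay at 1 or higher, where 5.35% did. The 10 genes were chosen with earlier results of these data known, so these counts cannot test for an excess. Both values sat at the edge of this fold. They were −0.81 and −0.75 when scaled to total counts, a choice that moves the all-gene median up by 0.25, and −0.77 and −0.72 from FPKM, so none of the 10 then reached −1.

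Several integrin chains leaned the other way in 2KR eWAT. Itgae had a log2 ratio of 0.82 (0.58 to 1.06), Itgb1 of 0.50 (0.44 to 0.57), Itga1 of 0.42 (0.19 to 0.65) and Itga6 of 0.37 (0.21 to 0.52). The LFA-1 chains were slightly lower, Itgal at −0.34 (−0.40 to −0.28) and Itgb2 at −0.31 (−0.36 to −0.26). Those values came close to 0 under total count scaling, at −0.09 for Itgal and −0.06 for Itgb2. Itga4 was at 0.05 (−0.02 to 0.13). Itgav was at −0.11 (−0.20 to −0.01) and turned to 0.15 under total count scaling. The median over the 10 genes was −0.03, against −0.08 over all 12307 genes. Alongside, the summed fibroblast and mesothelial markers were 264 and 577 CPM in 2KR and WT eWAT, and the dendritic cell markers 12666 and 6970.3 CPM. Of the dendritic sums, Cd74 alone made up 8289 and 4501 CPM in 2KR and WT eWAT. The Treg and T cell markers were 6074 and 7996 CPM, the endothelial markers 346 and 201 CPM and the B cell markers 172 and 96.6 CPM. The mast and innate lymphoid markers at 5 CPM or more had a median log2 ratio of 2.92. Of these 8 markers, 5 lay at 1 or higher and 1 at −1 or lower. Tpsb2, a mast cell marker, had 175 and 4 reads in 2KR and WT eWAT. The part of these cells in the ratios was not tested.

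In spleen the ratios of Itgb7 and Cd44 between genotypes were nearer to 0. On the log2 scale 2KR over WT was 0.02 (−0.01 to 0.04) for Itgb7 and 0.15 (0.07 to 0.22) for Cd44. Itgae was at −0.37 (−0.46 to −0.29), Itgb1 at 0.23 (0.18 to 0.29), Itga4 at 0.21 (0.13 to 0.30) and Itgal at 0.16 (0.12 to 0.20). Itga1 was at −0.77 with a wide interval (−2.07 to 0.25) from 12 and 18 reads. Of the 10 genes, 0 lay at 1 or further from 0, where 1.01% of genes were at 1 or higher and 5.71% at −1 or lower. The difference of the eWAT and spleen genotype ratios was 1.19 for Itgae, 1.18 for Itga1, −1.08 for Itgb7 and −1.15 for Cd44 on the log2 scale, and lay between −0.50 and 0.27 for the other 6 genes. These differences have no residual spread to test against.

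**Figure D4:**
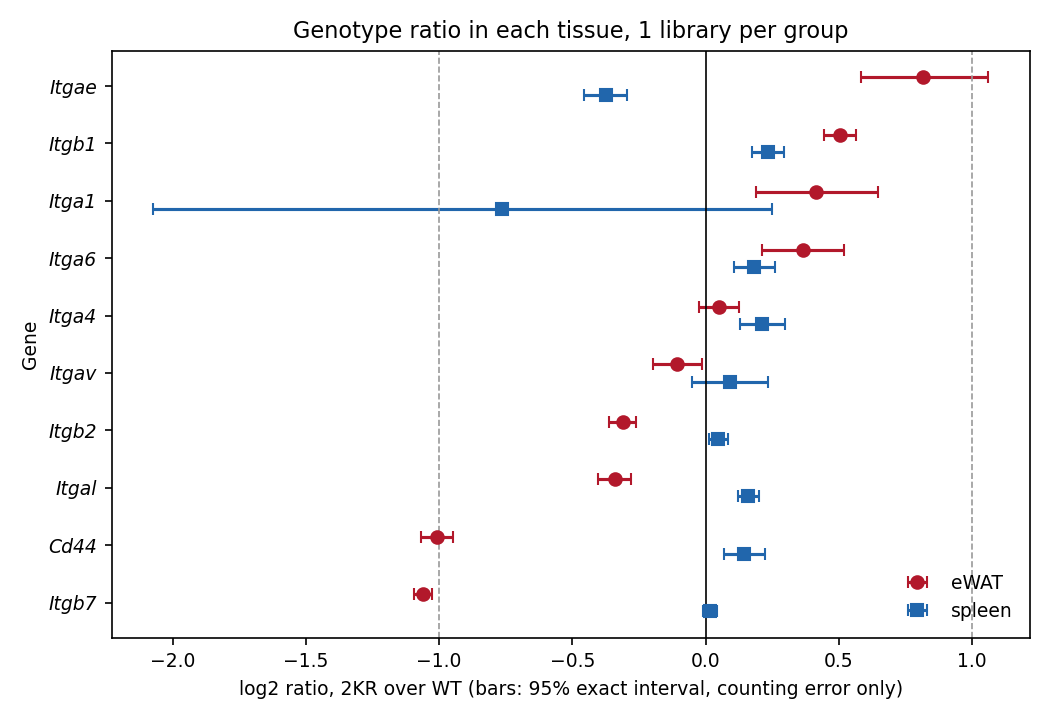
Log2 ratio of 2KR over WT for each gene (x axis) in eWAT (circles) and in spleen (squares), with 95% exact intervals for counting error and dashed lines at −1 and 1. Itgb7 and Cd44 lie at about −1 in eWAT and between 0.02 and 0.15 in spleen, while Itgae lies at 0.82 in eWAT and −0.37 in spleen.

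Genotype was also tested over all 4 libraries in a fit that holds tissue as a term and leaves 1 residual degree of freedom. None of the 10 genes passed in edgeR (0 of 10, where 0.0667% of all genes passed), and 0 had an unadjusted p under 0.05, where 777 of 16488 genes did. DESeq2 also gave 0 of 10, with 0 at an unadjusted p under 0.05. Under total count scaling 0 of 10 passed and 2 had an unadjusted p under 0.05, the lower at 0.00458 in edgeR. The log2 fold changes lay between −0.52 for Itgb7 (SE 0.34, edgeR adjusted p = 0.9998) and 0.37 for Itgb1 (SE 0.23, adjusted p = 0.9998).

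The rest of the integrin family was mostly higher in eWAT. Of the 17 family genes outside the 10, 12 passed as higher, 0 as lower and 5 in neither direction, where 33.7% of all genes were higher and 23.2% lower. The family list, with the 9 integrin chains above included, had a median log2 fold change of 1.39, against 0.11 over all genes tested. Itgax, Itga10, Itga11, Itgb4 and Itgb6, all among the 12, had between 2 and 23 reads in each spleen library. Genes so low in spleen could hardly be called lower, so neither the count nor the median tests the direction of the family. Itgam and Itgax, the alpha-M and alpha-X chains typical of myeloid cells, had 5.08 (SE 0.29, edgeR adjusted p = 2.66e-08) and 5.15 (SE 0.59, adjusted p = 1.66e-05). Itgam stood at 91.2 and 62.1 CPM in 2KR and WT eWAT, against 2.62 and 1.86 CPM in 2KR and WT spleen. The collagen receptor chain Itga2 had 2.86, the fibronectin receptor chain Itga5 1.64, Itga7 2.05 and Itga3 1.004. Macrophage and dendritic cell markers were higher in the same libraries, as given above.

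Itgb3, the beta-3 chain that pairs with alpha-v, had the lowest genotype ratio of the family in fat. It stood at 40.4 and 141 CPM in 2KR and WT eWAT and at 33.9 and 24.3 CPM in 2KR and WT spleen. WT eWAT was the highest library by a wide margin, and 2KR eWAT was near the spleen level. On the log2 scale 2KR over WT eWAT was −1.80 (−1.97 to −1.65), and −1.55 under total count scaling. Its tissue log2 fold change was 1.64 (SE 0.40, edgeR adjusted p = 0.00384). Among the 16 such family genes at 5 CPM or more, Itgb3 alone lay at −1 or lower in eWAT, where 2.33% of all genes did, while Itga7 (1.17) and Itgad (1.56) lay at 1 or higher, where 5.35% did. Itgax (1.12) and Itgb8 (1.04) also passed 1 under total count scaling, and Itgax (1.17) from FPKM. Itgb8, a chain that pairs with alpha-v to release active TGF-beta, was at 18.4 and 10.6 CPM in 2KR and WT eWAT and 18.8 and 20.1 CPM in 2KR and WT spleen. Its tissue test did not pass (−0.42, edgeR adjusted p = 0.241).

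Integrins act through intracellular partners that link them to actin and switch them on. Of 30 adaptor and activator genes, 13 were lower in eWAT, 7 were higher and 10 did not pass, where 23.2% of all genes were lower and 33.7% higher. Their median log2 fold change was −0.41, against 0.11 over all genes tested. Fermt1 and Fermt2, among the higher ones, had between 10 and 15 reads in each spleen library. With so few reads in spleen a gene could hardly be called lower, so neither the count nor the median tests the direction of this list. Of the 9 Treg and T cell markers, 5 were lower in the same libraries, 1 was higher and 3 did not pass, as given above. The part of T cells in this count was not tested. The lower ones included leukocyte forms of this machinery. Fermt3, the kindlin-3 gene whose product switches integrins on, had −1.01 (SE 0.25, edgeR adjusted p = 0.00451), with 239 and 363 CPM in 2KR and WT eWAT and 580 and 630 CPM in 2KR and WT spleen. Rasgrp2, an activator of the GTPase RAP1, had −0.96, Fyb, an adaptor also called ADAP, −0.94, and Rassf5, a RAP1 effector, −0.85. The higher ones included Fermt2 (3.47) and Vcl (2.89), the genes of kindlin-2 and vinculin, and Rap1b (0.90). Talin, the product of Tln1, links beta tails to actin, and Tln1 did not pass, with −0.46. Of the 29 adaptors at 5 CPM or more, 0 had a log2 ratio of 2KR over WT eWAT of 1 or further from 0, where 5.35% of all genes were at 1 or higher and 2.33% at −1 or lower. Fermt2 was at 0.94 and passed 1 under total count scaling (1.19) and from FPKM (1.28).

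Transcripts of integrin ligands were mostly higher in eWAT, 17 of 25, with 2 lower and 6 not passing, where 33.7% of all genes were higher and 23.2% lower. Their median log2 fold change was 2.38, against 0.11 over all genes tested. Fn1 (fibronectin) had a log2 fold change of 5.89, Col4a2 of 5.28, Col1a2 of 4.82 and Col4a1 of 4.39. In 2KR and WT spleen, Fn1 had 12 and 21 reads, Col4a2 1 and 11, Col1a2 5 and 23, and Col4a1 15 and 33. Genes so low in spleen could hardly be called lower, so neither the count nor the median tests the direction of the ligands. Col1a1 and Col1a2 also stand in the fibroblast list, all of whose 10 genes were higher in eWAT. The part of fibroblasts in the count was not tested. The LFA-1 ligands went both ways. Icam1 was higher, at 677 and 801 CPM in 2KR and WT eWAT and 202 and 213 CPM in 2KR and WT spleen (1.83, SE 0.23, edgeR adjusted p = 4.15e-05). The less abundant Icam2 was lower (−0.90), as was Vcam1 (−1.15), a ligand of the alpha-4 integrins. Among 21 hyaluronan and CD44 partner genes tested, Cd44 included, 14 passed as higher, 2 as lower and 5 in neither direction. Of all genes, 33.7% were higher and 23.2% lower. Tnfaip6, Ank3 and Stab2, among those higher, had between 1 and 27 reads in each spleen library, so this count does not test direction either. Mmp9, a matrix protease that CD44 can hold at the cell surface, stood at 102 and 299 CPM in 2KR and WT eWAT and at 14.6 and 7.02 CPM in 2KR and WT spleen. It had a log2 fold change of 4.203 (SE 0.44, edgeR adjusted p = 7.02e-06) and a 2KR over WT eWAT ratio of −1.55 (−1.65 to −1.44). Hyal2, a hyaluronidase, was lower (−1.66), as was Rdx (−0.62), the gene of radixin, which ties CD44 to actin.

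Other adhesion and migration receptors gave 4 higher, 9 lower and 7 not passing of 20, beside 33.7% and 23.2% of all genes. Cd69, which holds T cells in tissue by opposing the egress receptor S1PR1, stood at 501 and 2041 CPM in 2KR and WT eWAT and at 292 and 256 CPM in 2KR and WT spleen. Its tissue log2 fold change was 2.21 (SE 0.46, edgeR adjusted p = 0.00156) and the 2KR over WT eWAT ratio −2.03 (−2.07 to −1.98). S1pr1 itself was lower in eWAT (−1.19) and differed little by genotype there (0.09, 0.01 to 0.18).

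The authors' transcript estimates separated RNA forms for 3 of the 10 genes, Itgae, Itgal and Cd44. The other 7 had 1 transcript each in the files. For Cd44, the shortest of 6 transcripts (4407 bases) held 95.9% and 97.6% of the gene's FPKM in 2KR and WT eWAT and 97.4% and 97.2% in 2KR and WT spleen. The longer forms carry variable exons, and the most abundant of them (4704 bases) held 3.62% and 0.999% in 2KR and WT eWAT and 1.34% and 2.40% in 2KR and WT spleen. For Itgae, the shorter of 2 transcripts (3813 bases, against 3836) held 29.1% and 33.2% in 2KR and WT eWAT, against 9.001% and 11.4% in 2KR and WT spleen. By these estimates the longer transcript was the major form in every library, and its share was lower in fat. Its level was 7.37 FPKM (the authors' interval 6.28 to 8.46) and 3.18 FPKM (2.56 to 3.81) in 2KR and WT eWAT, and 37.3 (35.6 to 38.9) and 45.8 FPKM (43.8 to 47.8) in 2KR and WT spleen. No test was made on transcript shares. The 2 Itgae transcripts differ little in length, and their split in 2KR and WT eWAT rests on 376 and 240 reads, so it is uncertain. The 4 Itgal transcripts differ by at most a few bases in length, so their split is uncertain and is not described.

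The genes with the most similar pattern were found by distance between centred log2 levels over the 4 libraries, among genes with a mean of 20 CPM or more. Nearest to Itgae were D8Ertd82e (distance 0.17) and Sh2d1a (0.20). Sh2d1a, the gene of the T cell signalling adaptor SAP, stood at 42.2 and 24.9 CPM in 2KR and WT eWAT and 168 and 195 CPM in 2KR and WT spleen. Nearest to Cd44 were Ppp1r15a (0.06) and Gpr65 (0.09), and nearest to Itgb7 were Rfx1 (0.07) and Smpd1 (0.10). Itga1 lay nearest to Tgfbi (0.17) and H2-DMb1 (0.23), a component of antigen presentation that stood at 167 and 106 CPM in 2KR and WT eWAT and 3.60 and 5.81 CPM in 2KR and WT spleen. Itgav lay nearest to 0610010F05Rik (0.07) and Atf6 (0.14), Itga6 to Zfp955b (0.03) and Smad1 (0.05), and Itga4 near Zfp40 (0.07). The nearest to Itgal were Plekhm1 (0.03) and Mllt1 (0.03), to Itgb1 Ap4e1 (0.06) and Pank3 (0.08), and to Itgb2 Dennd1c (0.01) and Sugp2 (0.01). With 4 libraries many genes share such a pattern by distance alone.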

How the data were processed

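RNA sequencing counts of Treg cells from 4 libraries were used, grouped by the sample titles. The deposited counts are whole, unscaled numbers of reads for each gene symbol. Poly-A RNA was sequenced at 100 bp. Reads were demultiplexed by bcl2fastq 1.8.4, then mapped by Tophat 2.1.0 on mm9 with at most 4 mismatches and 10 hits a read, per the deposited readme. The submitters' processing notes also name mm8. No counting tool or strand setting is given in the sources used here. The authors computed FPKM using Cufflinks 2.0.2, per the deposited readme. Transcript lengths and a coverage signal stand beside them in the deposited files, and coverage entered no result.

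Tests used R 4.3.3, edgeR 4.0.16 (TMM, expression filter, 16488 genes), with DESeq2 1.42.0 and limma 3.58.1 as alternatives, and Python 3.11.15 (scipy 1.17.1, numpy 2.4.6, matplotlib 3.10.9, pandas 2.3.3). A SE is the log2 fold change over the square root of F. Ratios of single libraries used a prior count of 2 and exact conditional binomial 95% intervals. The fitting step was tested on simulated data. The members and lists were chosen with earlier results of these data known. Named were the members, family genes at 5 CPM or more, up to 5 genes a list and direction by fold change at 10 CPM or more, and 2 nearest genes a member. A few genes within this rule are not reported here. Tln1, Icam1, Tpsb2 and Mcpt4 were named outside that rule, after their values were seen. Duplicate gene symbols were summed in FPKM. Coordinates are 1-based.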

Additional observations from a re-analysis of the deposited data

Results flagged for a closer look

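The genotype ratio had opposite signs in eWAT and spleen, each with a counting interval that left out 0, for 4 of the 10 genes, where 13.8% of 12307 genes did the same. Such intervals narrow as reads rise, and the 12307 genes include any at 5 CPM or more in 1 library. The 2 shares are therefore not compared at equal depth. The differences were not tested, since there was 1 library per group. Itgae had log2 ratios (2KR over WT) of 0.82 in eWAT and −0.37 in spleen, a difference of 1.19. Cd44 had −1.01 in eWAT and 0.15 in spleen, a difference of −1.15. The difference was −0.50 for Itgal and −0.36 for Itgb2, and the eWAT ratios of both came close to 0 under total count scaling. Itgb2 was counted on a spleen ratio of only 0.05 (0.01 to 0.08). For Itgb7 the tissue ratio turned with genotype, at −0.67 in 2KR and 0.41 in WT, a difference of −1.08 that was not tested either. Such a turn was seen for 4.04% of the 12307 genes, a share with the same limit of depth.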

How the results depend on the processing

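With 1 library per group, no genotype ratio has a replicate check, and the depth of 8315569 to 15993889 reads limits Itga1 in spleen most. The labels do not link eWAT and spleen libraries by animal, so the tissues could be paired only by genotype. That fit, with genotype as a block, gave 4 genes higher and 3 lower. Counts of 4 higher and 3 lower genes ranged over 3 to 5 and 2 to 5 when each library was left out, and DESeq2 gave 4 lower. Over all genes, higher calls ranged over 3402 to 5491 and lower calls over 1909 to 5278 when each library was left out. Higher calls were 3402 without 2KR eWAT, and lower calls were 1909 without WT spleen and 2178 without 2KR spleen. Without WT eWAT 5 of the 10 genes were lower. Genes at −1 or lower in 2KR eWAT numbered 0 under total count scaling and 0 from FPKM with either pseudocount, and genes at 1 or higher numbered 1 under total count scaling and 1 from FPKM with a pseudocount of 0.1. In spleen 1 gene, Itga1, lay beyond 1 from FPKM with that pseudocount. The genotype ratio of Itgav in eWAT turned to 0.15 under total count scaling and to 0.22 and 0.23 from FPKM with pseudocounts of 1 and 0.1. The tissue fold change of Itgb7 turned to 0.088 under total count scaling and to 0.0703 from FPKM with either pseudocount, and it ranged from −0.76 to 0.33 when each library was left out. That of Itgb1 ranged from −0.044 to 0.43, the lowest without 2KR eWAT. In the common genotype test, which no gene of the 10 passed under any alternative, signs turned under total count scaling for Itgav (0.14), Itgal (0.052) and Itgb2 (0.0103), under DESeq2 for Itgav (0.0054) and Itga1 (−0.076), and without the filter for Itga1 (−0.0112). The cause of these turns was not tested. Of 110 tissue values of single genes 96 kept their direction and their side of the threshold.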
